A study of Rattus norvegicus with 4 samples.

Results

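The unfolded protein response was followed through 35 genes of its ATF6, IRE1/XBP1 and PERK/ATF4 arms in cultured neonatal rat heart muscle cells. The genes were chosen by name as known members of these arms and not by a rule on measured values, although earlier results of these data were known when they were chosen. All 35 were found among the 15731 genes of the deposited table, 33 under their own symbol, Ero1b as Ero1lb and Selenos as Vimp. Of these, 14 belong to the ATF6 arm of chaperones and folding enzymes, 10 to the IRE1/XBP1 arm with its degradation machinery and 11 to the PERK/ATF4 arm. Many targets of ATF6 and XBP1 are shared, so each gene was placed with the regulator it is best known for.

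Ventricular cardiomyocytes came from hearts of wild type Wistar rats at postnatal day 1, although one protocol text gives day 0. The cultures were transfected by Lipofectamine RNAiMAX with a synthetic mimic, a short double-stranded RNA that raises the amount of 1 miRNA. The 3 mimics copy the human members of the miR-106b/25 cluster, which are hsa-miR-25-3p, hsa-miR-93-5p and hsa-miR-106b-5p, and the control mimic was cel-miR-67, a miRNA of the nematode worm. RNA was taken 72 h later, at a mimic dose given as 25 nM in one part of the sample labels and as 25 mM in another, and the labels do not say whether cells of several animals were pooled. Each mimic gave 1 library, so no difference below has a replicate check and no test between mimics was possible. The comparisons ask what each cluster member does to the transcripts of this response, against the control mimic and against each other.

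Proteins that enter the secretory pathway fold inside the endoplasmic reticulum (ER), and when unfolded protein accumulates there the membrane sensors ATF6, IRE1 and PERK are activated. ATF6 is cut to release a transcription factor that raises ER chaperones, IRE1 splices the mRNA of XBP1, whose product raises degradation and folding genes, and PERK phosphorylates the translation factor eIF2α, which slows protein synthesis but favours translation of ATF4. ATF4 in turn raises genes of amino acid synthesis and of stress-induced cell death. In heart muscle, where the same compartment stores calcium, the response is known from ischaemia and from hypertrophic growth. RNA levels do not show the splicing, cleavage or phosphorylation by which the sensors act.

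The mature sequences of the miRNAs are shown because miR-106b and miR-93 have the same seed, the bases that pair with target transcripts, and miR-25 has another. They are the rat sequences of RefSeq on build GRCr8, all read from the minus strand, with the seed (bases 2 to 8) in capitals, at chr12:22157103-22157123, chr12:22156894-22156916 and chr12:22156652-22156673.
rno-miR-106b-5p: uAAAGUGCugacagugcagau
rno-miR-93-5p: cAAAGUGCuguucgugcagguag
rno-miR-25-3p: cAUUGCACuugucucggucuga

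The ER stress response element is the best known sequence through which ATF6 and XBP1 raise ER genes, and it was looked for in the promoter windows of RefSeq, each running from 250 bases before to 50 bases after a gene's start on build GRCr8. The letters searched were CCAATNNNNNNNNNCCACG on both strands, and they occurred in 22 of 33469 windows (0.0657%). Of the 35 genes, 30 had a window, and 8 of these held the letters, namely Hspa5, Hsp90b1, Calr, Canx, Creld2, Ero1b, Xbp1 and Dnajc3. The windows of Hspa5 and Canx are shown in full because both genes encode ER chaperones, both windows hold the element, and the 2 transcripts had opposite directions of change. Capitals mark the element, which begins 43 bases before the start of Hspa5 in the window chr3:38452766-38453065 (plus strand) and 230 bases before the start of Canx in chr10:35157808-35158107 (minus strand).
Hspa5: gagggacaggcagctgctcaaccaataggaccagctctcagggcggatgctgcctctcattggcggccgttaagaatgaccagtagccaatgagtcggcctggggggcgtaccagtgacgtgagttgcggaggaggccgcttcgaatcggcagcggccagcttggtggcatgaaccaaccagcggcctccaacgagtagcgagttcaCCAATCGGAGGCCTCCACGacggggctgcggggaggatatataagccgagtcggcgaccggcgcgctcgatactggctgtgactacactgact
Canx: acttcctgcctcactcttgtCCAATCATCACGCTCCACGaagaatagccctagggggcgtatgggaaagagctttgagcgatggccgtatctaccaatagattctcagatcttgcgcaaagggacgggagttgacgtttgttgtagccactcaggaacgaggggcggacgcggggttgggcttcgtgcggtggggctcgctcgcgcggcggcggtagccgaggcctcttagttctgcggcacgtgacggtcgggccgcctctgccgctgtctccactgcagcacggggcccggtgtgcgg

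The other holders of the element are given with 5 bases on each side, read on the gene's own strand, so that a match on the opposite strand appears as CGTGG followed by ATTGG. The search fixed the length of the spacer between the 2 blocks and left its letters free, and these letters differ between the sites.
Calr: caacgCGTGGTCGACCCTGATTGGcccag
Creld2: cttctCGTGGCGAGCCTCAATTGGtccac
Ero1b: gccctCGTGGTCCCGCCTCATTGGccgcc
Xbp1: acaggCCAATCGCAGACGGCCACGaccct
Dnajc3: caaagCCAATCAGCGCCAACCACGaccca
Hsp90b1, first site: caaacCCAATCGAAAGGAGCCACGcttcg
Hsp90b1, second site: gagtgCGTGGTGAGGCACGATTGGtgggt

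A second element, ERSE-II, was searched as ATTGG, 1 base of any kind and CCACG, on both strands like the other elements here, and was present in 17 windows (0.0508%), among them those of Hyou1, Dnajb11 and Herpud1. The XBP1 element TGACGTGG was in 199 windows (0.595%), including those of Dnajc10 and Hyou1, where it overlaps an ERSE-II match. The core of the amino acid response element bound by ATF4, TGATGNAA, was in 1332 windows (3.98%), including those of Chac1, Trib3 and Herpud1. Sites of ERSE-II and of the ATF4 element in genes that the results turn on are shown, again with 5 bases on each side.
Herpud1, ERSE-II: cgctgATTGGGCCACGttggg
Herpud1, ATF4 element: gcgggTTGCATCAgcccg
Chac1, ATF4 element: cgccgTTGCATCActcct
Trib3, ATF4 element: caggtTTACATCAgccgg
A match is a description of the letters in this window and does not show binding, and a missing match says nothing about the factor.

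Levels are given as RPKM, read numbers scaled by gene length in kilobases and by the size of the library, as the authors deposited them. A fold change is the ratio of 2 RPKM values, and a gene was counted as higher or lower when the ratio passed 1.3-fold and both values were above 1.0. These are the cutoffs given in the results text of the study, whose methods text gives an RPKM cutoff of 2.0 for expressed genes. The study reports fewer higher and fewer lower genes for each mimic than were counted here. The background shares below are therefore not those of the study. All 35 genes were above 1.0 in all 4 libraries, from 1.89 RPKM for Chac1 with miR-25 to 585 for Hspa5 with the control. The reads behind the values were recovered from the RPKM steps, and the median over the 35 genes was between 1557 and 2129 reads per library. For single genes the 95% exact (Clopper-Pearson) interval of the log2 fold change is given in parentheses. It covers counting error only and leaves out differences between cultures.

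Library sizes recovered from the RPKM values were between 22674410 and 29749467. They were not whole numbers and so not plain totals of reads, and what the authors used as library size is not stated. Reads on the listed genes came to between 60.4% and 66.9% of these sizes. Cardiomyocyte markers were abundant in all 4 libraries (Tnnt2 between 1750 and 2433 RPKM), while the 6 listed endothelial markers summed to at most 5.32 RPKM and the 6 macrophage and blood cell markers to at most 9.98 RPKM. Summed levels of muscle and fibroblast markers differed most from the control in the miR-25 library. The 10 listed cardiomyocyte markers summed to 7819 RPKM with miR-25 against 14611 with the control, the 8 fibroblast markers to 317 against 821 RPKM, and the 4 smooth muscle markers to 2051 against 745 RPKM. Of the 8 fibroblast markers 7 were lower (87.5%, against 22.6% of all genes) and 1 was higher with miR-25. Lower fibroblast markers were not particular to miR-25. They numbered 5 with miR-106b (62.5%, against 12.7% of all genes) and 4 with miR-93 (50.0%, against 15.6%). Tnni3, the cardiac troponin I gene, was at 15.9 RPKM with miR-25 and 351 RPKM with the control. None of these markers was listed at 0. In bulk RNA, fewer cells of one kind and less RNA per cell cannot be told apart, and the part of these markers in the results below was not tested.

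With miR-106b the share of the 35 genes past the fold was close to that of all genes. Of the 35 genes 4 were higher and 4 lower, which is 11.4% in each direction, where 11.9% of the 11296 genes tested were higher (the background) and 12.7% were lower. The higher genes were Canx, Sdf2l1, Edem1 and Trib3, and the lower ones Herpud1, Xbp1, Dnajb9 and Dnajc10. The median log2 fold change was -0.16 in the ATF6 arm, -0.17 in the IRE1 arm and 0.14 in the PERK arm, beside a median of 0.00 over all genes tested.

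With miR-93 more genes were lower than higher. The counts were 5 higher (14.3%, background 15.1%) and 13 lower (37.1%, background 15.6%). Medians were -0.37 in the ATF6 arm, -0.36 in the IRE1 arm and 0.21 in the PERK arm, so the ATF6 and IRE1 arms and the PERK arm lay on opposite sides of the median of all genes. As an alternative scale, reads on the listed genes were used in place of the library size behind the deposited values. Every log2 fold change with miR-93 then moved up by 0.15. The split became 6 higher and 5 lower, with a background of 25.1% and 9.65%. Hspa5, Hsp90b1, Pdia3, Pdia4, Xbp1, Dnajb11, Dnajc10 and Eif2ak3 were then no longer past the fold, although none of them changed sign, and Phgdh became higher.

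With miR-25 more genes were lower than higher, with 18 lower (51.4%, background 22.6%) and 2 higher (5.71%, background 19.3%). The 2 higher genes were Canx and Ero1b. In the same library all 10 cardiomyocyte markers and 7 of the 8 fibroblast markers were lower than in the control. The 4 smooth muscle markers were all higher. The part of these markers in the counts was not tested. The median log2 fold change was -0.40 in the ATF6 arm, -0.31 in the IRE1 arm and -0.51 in the PERK arm, beside -0.01 over all genes. On the scale of reads on listed genes the values moved up by 0.15 and the split was 3 higher and 11 lower, with a background of 29.3% and 15.9%. The genes that were then no longer past the fold were Pdia4, Herpud1, Xbp1, Edem1, Syvn1, Ddit3 and Shmt2, and Dnajc10 became higher. The 3 comparisons use the same control library, so a value that is unusual in that library enters all of them.

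**Figure D1:**
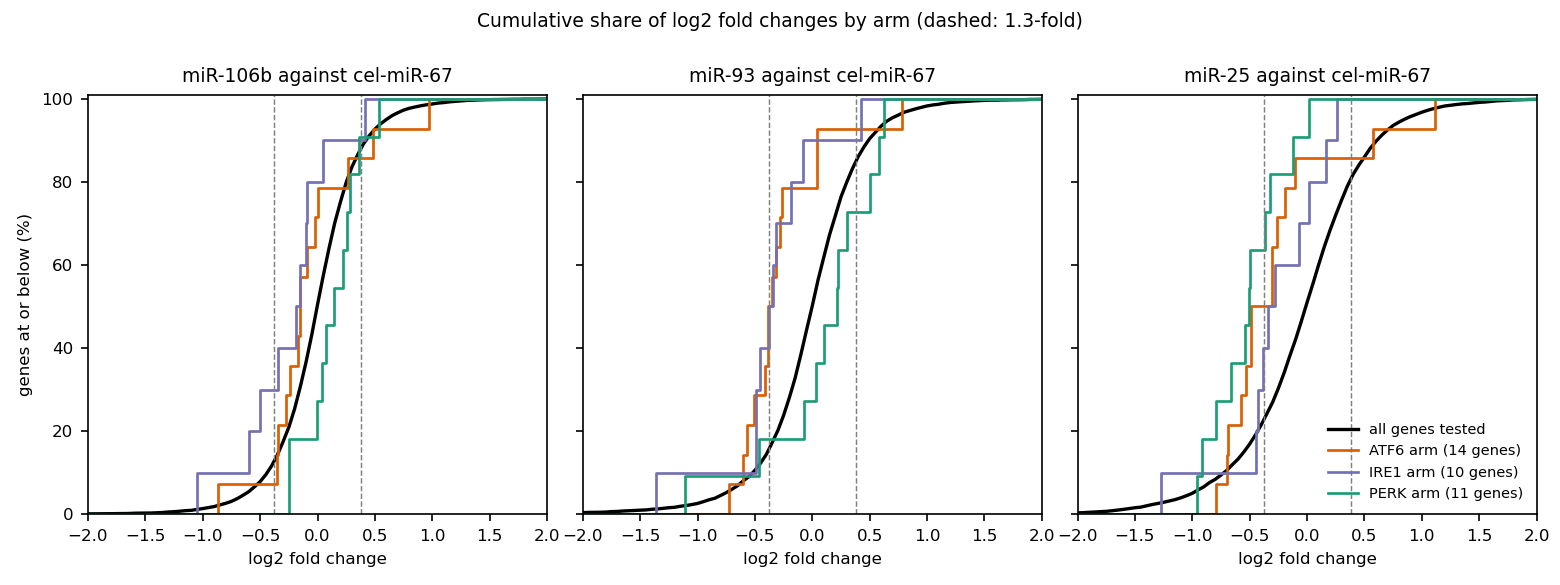
The curves give the percentage of genes (y axis) whose log2 fold change against the control mimic is at or below the value on the x axis, shown from -2 to 2, for all genes tested (black) and for the genes of each arm, with 1 panel per mimic and dashed lines at 1.3-fold. With all 3 mimics the ATF6 and IRE1 curves reach 50% left of the black curve, least so with miR-106b (medians -0.16 and -0.17). The PERK curve reaches it to the right with miR-106b (0.14) and miR-93 (0.21) and to the left with miR-25 (-0.51).

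The control library held the highest level of 16 of the 35 genes (45.7%), against 23.6% of the 10984 genes above 1.0 RPKM in every library, and the lowest level of 1, Canx, against 22.8% of all genes. The pattern differed by arm. In the ATF6 arm the control was highest for 9 of 14 genes, and in the PERK arm the miR-25 library was lowest for 9 of 11 genes, against 36.5% of all genes.

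Hspa5, the ER Hsp70 chaperone BiP that keeps the sensors inactive in the absence of stress, was the most abundant of the 35 genes. It was at 585 RPKM in the control, at 496 RPKM with miR-106b, at 412 RPKM with miR-93 and at 336 RPKM with miR-25, from 23485 reads or more in each library. Against the control this was a log2 fold change of -0.24 for miR-106b (-0.26 to -0.22), of -0.50 for miR-93 (-0.53 to -0.48) and of -0.80 for miR-25 (-0.82 to -0.77), past 1.3-fold in the last 2 cases. The levels thus ran down from the control to miR-25, and these intervals overlapped neither each other nor 0.

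Hsp90b1, the ER Hsp90 chaperone GRP94, had the same order of libraries as Hspa5, with 209 RPKM in the control, 188 RPKM with miR-106b, 160 RPKM with miR-93 and 130 RPKM with miR-25. Its log2 fold change was -0.16, -0.39 and -0.69 (-0.72 to -0.65) in the same order of mimics. Calr, the lectin chaperone calreticulin, which also buffers calcium in the ER, followed this order too. It was at 463 RPKM in the control, then at 365 RPKM with miR-106b, 311 RPKM with miR-93 and 286 RPKM with miR-25. That is a log2 fold change of -0.34 (-0.37 to -0.31), -0.57 (-0.60 to -0.54) and -0.70 (-0.73 to -0.67), of which the last 2 passed the fold.

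Canx, which encodes calnexin, the membrane-bound lectin chaperone that works beside calreticulin on glycoproteins, had the opposite direction. Its level was 157 RPKM with miR-106b, 138 RPKM with miR-93 and 173 RPKM with miR-25, but 80.2 in the control. Canx was thus 1.96-fold, 1.72-fold and 2.16-fold higher with the 3 mimics, a log2 fold change of 0.97 (0.94 to 1.01), 0.78 (0.75 to 0.82) and 1.11 (1.08 to 1.15). All mimic libraries were above the control, which had 9062 reads for Canx, and the mimics differed from each other by less than 1.3-fold when miR-25 was set over miR-106b (0.14, 0.12 to 0.17) and over miR-93 (0.33, 0.30 to 0.36).

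The protein disulfide isomerases, which form and rearrange disulfide bonds, had smaller changes. Pdia4 was at 77.1 RPKM with miR-106b, 74.3 RPKM with miR-93 and 70.6 RPKM with miR-25, against 98.8 in the control, a log2 fold change of -0.36 (-0.41 to -0.30), -0.41 (-0.47 to -0.35) and -0.48 (-0.54 to -0.43). Pdia3 was at 76.7, 66.3 and 80.3 RPKM with the same mimics and 86.5 in the control, and passed the fold with miR-93 (-0.38, -0.45 to -0.32) only narrowly. Pdia6 did not pass it, with 163 to 176 RPKM with the mimics and 196 in the control.

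Hyou1, an ER chaperone of the large Hsp70 type that exchanges the nucleotide of BiP, was at 65.3 RPKM in the control, 54.0 RPKM with miR-106b, 43.0 RPKM with miR-93 and 43.9 RPKM with miR-25. It fell with miR-93 (-0.60, -0.65 to -0.55) and miR-25 (-0.57, -0.62 to -0.52), and its value of -0.27 for miR-106b was within the fold. Herpud1, a membrane protein of ER-associated degradation, was at 24.0 RPKM with miR-106b, 26.3 RPKM with miR-93 and 31.0 RPKM with miR-25, against 43.6 in the control. Here the order of the mimics was the reverse of that of Hspa5, with a log2 fold change of -0.86 (-0.97 to -0.76), -0.73 (-0.83 to -0.63) and -0.49 (-0.59 to -0.39).

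Sdf2l1, a partner of ER DnaJ chaperones, was one of the few ATF6 genes that differed in direction between mimics. It was at 16.0 RPKM with miR-106b, 11.7 RPKM with miR-93, 7.90 RPKM with miR-25 and 11.4 in the control, from 229 to 505 reads. It was higher with miR-106b (0.48, 0.27 to 0.70), lower with miR-25 (-0.53, -0.79 to -0.28) and not distinguishable from the control at this depth with miR-93 (0.04, -0.20 to 0.27). Ero1b, an oxidase that recharges the disulfide isomerases, was higher with miR-25, at 6.71 RPKM against 4.50 in the control (0.58, 0.38 to 0.77). With miR-106b it was at 5.41 RPKM and with miR-93 at 3.69 RPKM, within the fold on either side of the control.

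The sensor Atf6 was at 15.3 RPKM with miR-106b, 15.9 RPKM with miR-93, 12.5 RPKM with miR-25 and 15.5 in the control, within the fold with all 3, and its lowest value was -0.31 (-0.41 to -0.21) with miR-25. Manf, a secreted ER protein that protects heart muscle cells, and Creld2, another ER-resident target of the arm, did not pass the fold either. Manf was at 93.1 to 117 RPKM with the mimics and 116 in the control, and Creld2 at 18.9 to 22.7 and 24.1 RPKM.

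**Figure D2:**
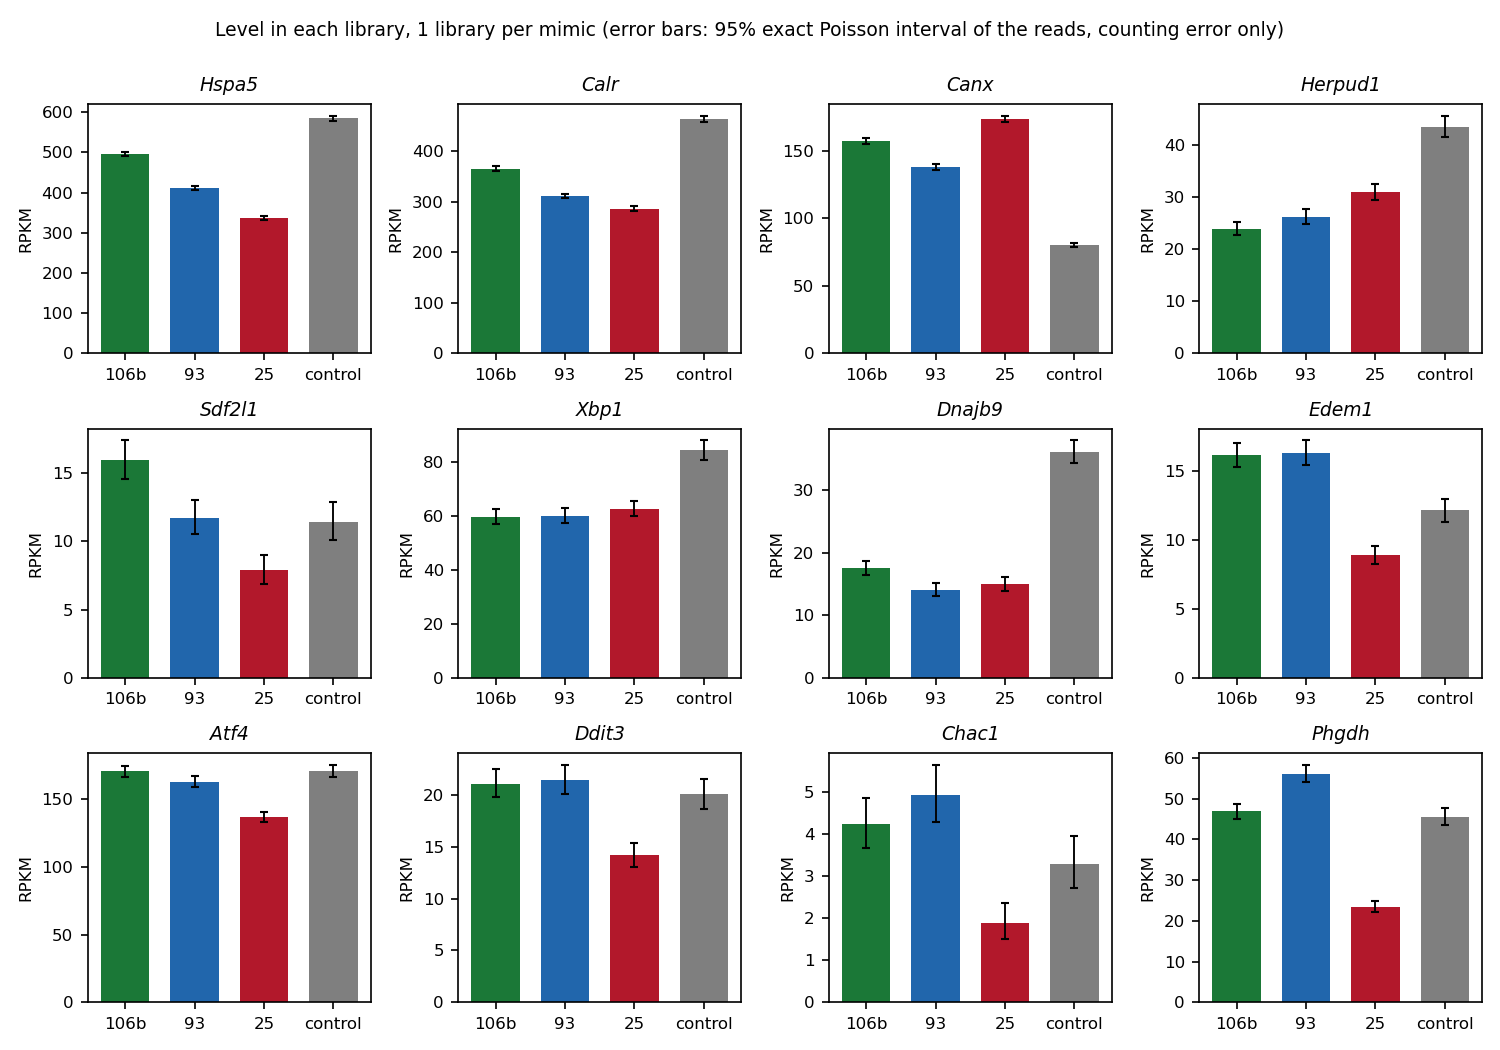
Each panel shows the RPKM (y axis, from 0, with its own scale in each panel) of 1 gene in the 4 libraries (miR-106b, miR-93, miR-25 and the control cel-miR-67), with error bars for the 95% exact Poisson interval of the reads. Canx is lowest and Dnajb9 highest in the control by a wide margin (80.2 RPKM and 36.2 RPKM), whereas Ddit3, Chac1 and Phgdh are lowest with miR-25 (14.1, 1.89 and 23.5 RPKM).

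In the IRE1/XBP1 arm, Dnajb9 had the largest change of all 35 genes with each of the 3 mimics. It encodes ERdj4, a DnaJ co-chaperone induced by XBP1 that holds IRE1 in check. Its level was 17.5 RPKM with miR-106b, 14.1 RPKM with miR-93 and 15 RPKM with miR-25, against 36.2 in the control, from 741 to 1580 reads. The log2 fold change was -1.05 (-1.16 to -0.93), -1.36 (-1.49 to -1.23) and -1.27 (-1.40 to -1.15), which is 0.484, 0.389 and 0.414 of the control level. The miR-93 and miR-25 libraries could not be told apart for this gene at this depth (0.09, -0.06 to 0.24).

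Xbp1, whose spliced form is the transcription factor of the arm, was the most abundant gene of the arm in the control. It was at 84.3 RPKM in the control, 59.7 RPKM with miR-106b, 60.0 RPKM with miR-93 and 62.6 RPKM with miR-25. Its log2 fold change was -0.50 (-0.59 to -0.41), -0.49 (-0.58 to -0.40) and -0.43 (-0.52 to -0.34), and the mimic libraries were close together, with miR-25 over miR-106b at 0.07 (-0.02 to 0.16). The deposited values are per gene, so spliced and unspliced Xbp1 mRNA were not separated here. Ern1, the gene of IRE1 itself, was low, with 1.96, 2.35 and 2.37 RPKM with the mimics and 2.49 in the control, and was within the fold with all 3.

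Edem1 and Dnajc10 had one direction with miR-106b and miR-93, which share a seed, and another with miR-25. For these genes miR-93 over miR-106b was at 0.01 (-0.09 to 0.12) and 0.10 (0.03 to 0.17). Some other genes differed more between miR-93 and miR-106b, as given with the direct comparisons below. Edem1, a lectin that draws misfolded glycoproteins out of the folding cycle, was at 16.2 RPKM with miR-106b and 16.3 with miR-93, at 8.93 with miR-25 and at 12.2 in the control. It was higher with the first pair (0.41, 0.29 to 0.54, and 0.43, 0.30 to 0.55) and lower with miR-25 (-0.45, -0.59 to -0.30), and with a threshold of 1.5-fold none of these values passed. Dnajc10, which encodes ERdj5, a disulfide reductase that unlocks proteins for degradation, had the opposite pattern. It was at 26.0 and 27.9 RPKM with miR-106b and miR-93, at 47.0 with miR-25 and at 39.2 in the control, so that it fell with the pair (-0.59, -0.66 to -0.53, and -0.49, -0.56 to -0.42) while its value for miR-25, 0.26 (0.20 to 0.32), was within the fold.

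Of the remaining genes of the arm, Dnajb11, an ER DnaJ protein that works with BiP, was at 77.0 RPKM in the control, 69.3 RPKM with miR-106b, 56.2 RPKM with miR-93 and 63.4 RPKM with miR-25, and fell with miR-93 (-0.45, -0.53 to -0.38). Syvn1, the ubiquitin ligase HRD1 of ER-associated degradation, was at 12.3 RPKM in the control and at 12.8, 10.8 and 9.42 RPKM with the mimics in the same order, and fell with miR-25 (-0.39, -0.50 to -0.28). Dnajc3, the co-chaperone that inhibits PERK, lay just inside the fold with miR-93 (-0.37, -0.46 to -0.29). Sel1l, the HRD1 adaptor, and Selenos, a membrane protein of the same complex, were within the fold with all mimics, with log2 fold changes from -0.34 to 0.17.

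**Figure D3:**
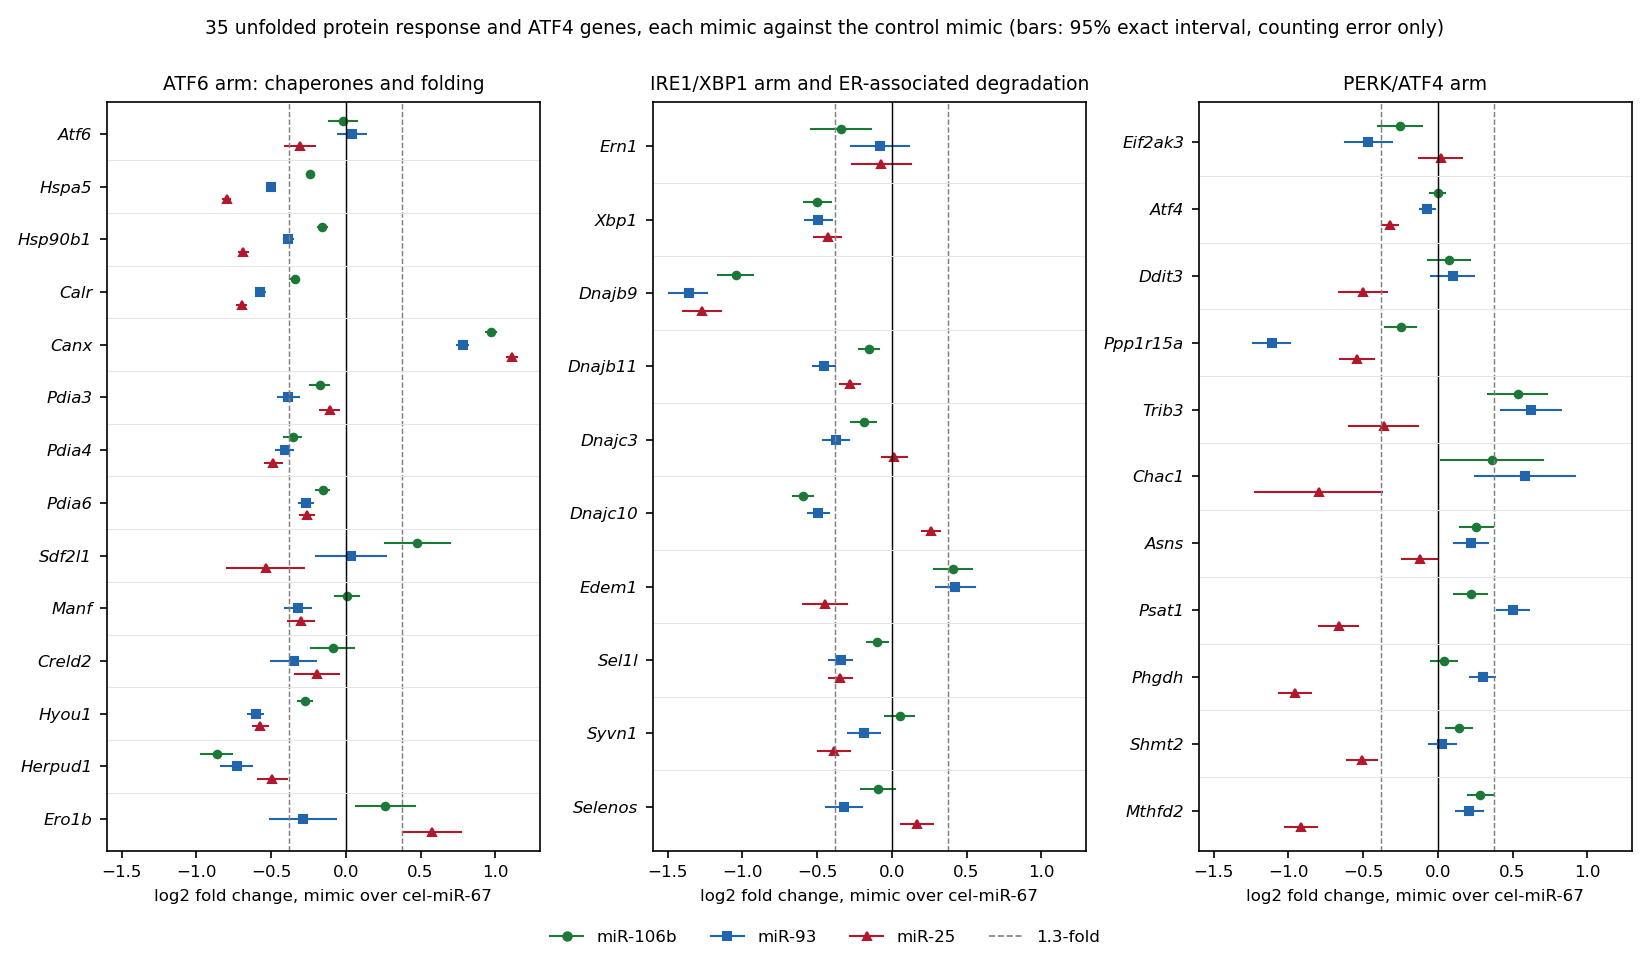
Points give the log2 fold change of each of the 35 genes (x axis) with miR-106b (circles), miR-93 (squares) and miR-25 (triangles) over cel-miR-67, in 1 panel per arm, with 95% exact intervals for counting error as bars and dashed lines at 1.3-fold. Canx stands far to the right of the other ATF6 genes and Dnajb9 far to the left of the other IRE1 genes, and in the PERK panel the triangles of Psat1, Phgdh, Shmt2 and Mthfd2 lie left of their circles and squares.

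The PERK/ATF4 arm had its lowest median with miR-25. With miR-25 it had 7 of 11 genes lower and none higher, with miR-106b 1 higher (Trib3) and none lower, and with miR-93 3 higher (Trib3, Chac1 and Psat1) and 2 lower (Eif2ak3 and Ppp1r15a). The 7 genes are 63.6% of the arm, where 22.6% of all genes were lower with miR-25 and 19.3% higher. The 3 genes higher with miR-93 are 27.3% of the arm, against 15.1% of all genes. The share higher with miR-106b, 9.09%, and the share lower with miR-93, 18.2%, were near the 11.9% and 15.6% of all genes. Of all genes 12.7% were lower with miR-106b. Atf4, the transcription factor, was the most abundant gene of the arm, with 170 RPKM with miR-106b, 162 RPKM with miR-93, 137 RPKM with miR-25 and 170 in the control. Its log2 fold change was 0.00 (-0.05 to 0.05), -0.07 (-0.12 to -0.02) and -0.32 (-0.37 to -0.26), within the fold with each. ATF4 is controlled largely through translation, which RNA levels do not show. Eif2ak3, which encodes PERK, was at 5.90, 5.09 and 7.12 RPKM with the mimics and 7.02 in the control, and fell with miR-93 (-0.47, -0.62 to -0.31).

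Among the stress effectors, Ddit3, which encodes the death-promoting factor CHOP, was at 21.1 RPKM with miR-106b, 21.4 RPKM with miR-93, 14.1 RPKM with miR-25 and 20.0 in the control. It fell with miR-25 (-0.50, -0.66 to -0.34), and no difference was detectable at this depth with miR-106b (0.07, -0.07 to 0.21) or miR-93 (0.10, -0.04 to 0.24). Trib3, a pseudokinase that restrains ATF4, was at 10.5 and 11.2 RPKM with miR-106b and miR-93, against 7.27 in the control and 5.65 with miR-25. It rose with the first pair (0.53, 0.34 to 0.73, and 0.62, 0.42 to 0.82), and was at -0.36 (-0.60 to -0.13) with miR-25, just within the fold.

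Chac1, which degrades glutathione, was at 4.22 RPKM with miR-106b, 4.92 RPKM with miR-93, 1.89 RPKM with miR-25 and 3.29 in the control, and is the gene with the fewest reads (81 to 211). It was at 0.36 (0.02 to 0.70) with miR-106b, rose with miR-93 (0.58, 0.25 to 0.92) and fell with miR-25 (-0.80, -1.22 to -0.37). Its fold changes carry the widest counting error of the 35 genes. Ppp1r15a, the phosphatase subunit GADD34 that reverses the action of PERK, did not follow the other effectors. It was at 12.7 RPKM with miR-106b, 6.95 RPKM with miR-93, 10.3 RPKM with miR-25 and 15 in the control, and fell both with miR-93 (-1.11, -1.24 to -0.99) and, to a smaller degree, with miR-25 (-0.54, -0.65 to -0.43).

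The 5 enzymes of the arm that make amino acids and one-carbon units were all lower with miR-25 than in any other library, and 4 of them passed the fold there. Phgdh, the first enzyme of serine synthesis, was at 46.8 RPKM with miR-106b, 56.1 RPKM with miR-93, 23.5 RPKM with miR-25 and 45.6 in the control. Mthfd2, the mitochondrial folate enzyme, was at 47.3, 45.0, 20.6 and 38.8 RPKM in the same order. With miR-25 the log2 fold change was -0.96 (-1.06 to -0.85) for Phgdh and -0.92 (-1.03 to -0.81) for Mthfd2, which left 0.515 and 0.529 of the control level.

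Psat1, the next enzyme of serine synthesis, was at 18.0, 21.8, 9.73 and 15.4 RPKM, again in the order miR-106b, miR-93, miR-25, control. It rose with miR-93 (0.50, 0.39 to 0.61) and fell with miR-25 (-0.66, -0.80 to -0.53). Shmt2, which splits serine into glycine and a one-carbon unit in mitochondria, was at 41.9, 38.8, 26.7 and 38.0 RPKM and fell with miR-25 (-0.51, -0.61 to -0.41). Asns, asparagine synthetase, showed the smallest difference, with 22.4, 21.9, 17.3 and 18.8 RPKM and a log2 fold change of -0.12 (-0.24 to -0.0016) with miR-25. With miR-106b none of the 5 passed the fold, and all their values were above the control, from 0.04 to 0.29.

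Setting the miR-25 library directly over the other mimics leaves out the control library. Over miR-106b, 12 of the 35 genes were lower (34.3%, background 23.0%) and 1 was higher, Dnajc10 (2.86%, background 22.1%). Over miR-93, 9 genes were lower (25.7%, background 23.0%) and 6 higher (17.1%, background 22.1%). These comparisons share the miR-25 library. The PERK arm held most of the lower genes, with 7 of its 11 (63.6%) in each comparison and a median of -0.65 over miR-106b and -0.60 over miR-93. Over miR-93 it also held 2 higher genes (18.2%), Eif2ak3 (0.48) and Ppp1r15a (0.57).

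For Mthfd2 the log2 ratio was -1.20 (-1.30 to -1.10) over miR-106b and -1.13 (-1.23 to -1.03) over miR-93. Phgdh gave -1.0 (-1.10 to -0.90) and -1.26 (-1.36 to -1.16). Trib3 was at -0.90 (-1.10 to -0.70) and -0.99 (-1.19 to -0.78), and Ddit3 at -0.57 (-0.72 to -0.43) and -0.60 (-0.75 to -0.45). These are ratios of at least 1.3-fold in each case, without any use of the control mimic.

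In the ATF6 arm 3 of 14 genes were lower with miR-25 than with miR-106b, Hspa5 (-0.56, -0.58 to -0.54), Hsp90b1 (-0.53, -0.56 to -0.50) and Sdf2l1, and over miR-93 1 was lower (Sdf2l1) and 1 higher (Ero1b), with medians of -0.21 and 0.01. The share lower over miR-106b, 21.4%, was near the 23.0% of all genes. Over miR-93 both shares were 7.14%, against 23.0% lower and 22.1% higher of all genes. In the IRE1 arm 3 of 10 genes were higher over miR-93 (30.0%) and 1 was lower (10.0%). In the IRE1 arm Edem1 and Dnajc10 were the genes that differed most, with Dnajc10 at 0.86 (0.79 to 0.92) over miR-106b and 0.75 (0.69 to 0.82) over miR-93. Dnajb9, Xbp1, Herpud1 and Canx, whose mimic levels all lay on one side of the control, were within 1.3-fold in these direct comparisons. Herpud1 was only just within it over miR-106b (0.37, 0.26 to 0.48). Hspa5 and Hsp90b1, also below the control with every mimic, passed it over miR-106b. The libraries of miR-93 and miR-106b, which share a seed, were not alike for every gene. With miR-93 over miR-106b, Ppp1r15a (-0.87, -0.99 to -0.74), Ero1b (-0.55, -0.75 to -0.35) and Sdf2l1 (-0.44, -0.65 to -0.24) were lower past 1.3-fold. All other genes of the response followed here were within 1.3-fold between miR-93 and miR-106b.

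The genes holding the ER stress response element did not all share a direction with any mimic, and the split was widest with miR-25. With miR-25 their log2 fold changes were -0.80 for Hspa5, -0.69 for Hsp90b1, -0.70 for Calr and -0.43 for Xbp1, but -0.19 for Creld2, 0.02 for Dnajc3, 0.58 for Ero1b and 1.11 for Canx. With miR-93 Canx was above the control (0.78), and the others were below it, from -0.29 for Ero1b to -0.57 for Calr. With miR-106b Canx (0.97) and Ero1b (0.26) were above the control, and the others below it, from -0.09 for Creld2 to -0.50 for Xbp1. Of the 3 holders of the ATF4 element, Chac1 and Trib3 were higher with miR-93 and lower than the control level with miR-25, at -0.80 and -0.36, whereas Herpud1, which also holds an ERSE-II match, was below the control with both, at -0.73 and -0.49.

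Other genes of the same pathways were taken from 2 lists, 34 further ER folding and quality control genes and 28 further genes of ATF4 and the integrated stress response that were listed once in the table. Of the 26 ATF4 genes tested with miR-25, 16 were lower and 2 higher, with a median of -0.49, against 1 lower and 1 higher with miR-106b (median 0.06) and 2 lower and 3 higher with miR-93 (median 0.06). With miR-25 this is 61.5% lower and 7.69% higher, against 22.6% and 19.3% of all genes. With miR-106b both shares were 3.85%, against 12.7% lower and 11.9% higher of all genes, and with miR-93 they were 7.69% lower and 11.5% higher, against 15.6% and 15.1%. The largest falls with miR-25 were Stc2, a secreted stanniocalcin, at 1.11 RPKM against 3.99 in the control (-1.85, -2.36 to -1.36), and Cth, which makes cysteine, at 1.17 against 4.16 RPKM (-1.83, -2.27 to -1.42). With miR-106b and miR-93 Stc2 was at 3.52 and 5.27 RPKM and Cth at 4.68 and 5.48 RPKM.

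Among the lower genes were amino acid transporters, with Slc7a5, the large neutral amino acid carrier, at -1.08 (-1.24 to -0.91) and Slc1a5, a glutamine carrier, at -0.98 (-1.16 to -0.80) with miR-25, both chosen after their values were seen. The largest rise with miR-25 was Gdf15, a secreted stress cytokine, at 8.65 RPKM against 4.59 in the control (0.91, 0.56 to 1.28). Ddit4, an inhibitor of mTORC1, had the largest rise with miR-106b, though its interval included 0 (0.39, -0.04 to 0.82). With miR-93 the largest rise was that of Stc2 (0.40, 0.09 to 0.71).

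Vldlr, a lipoprotein receptor induced by ATF4 under ER stress, was the largest fall of the ATF4 list with miR-106b and miR-93 and was lower with each mimic, at 51.3 RPKM in the control against 16.4 RPKM with miR-106b, 13.3 RPKM with miR-93 and 22.5 RPKM with miR-25. Its log2 fold change was -1.64 (-1.73 to -1.56), -1.95 (-2.04 to -1.85) and -1.19 (-1.27 to -1.11). As with Dnajb9, the 3 mimic libraries were all far below the control.

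The ER list had more lower than higher genes with miR-106b and miR-93 and an even split with miR-25. With miR-106b 8 of 33 genes were lower and none higher, with miR-93 12 of 32 were lower and none higher, and with miR-25 6 of 33 were lower and 6 higher, with medians of -0.17, -0.32 and 0.09. The share of lower genes was thus 24.2% for miR-106b and 37.5% for miR-93, against 12.7% and 15.6% of all genes, where 11.9% and 15.1% were higher. With miR-25 both shares were 18.2%, near the 22.6% lower and 19.3% higher of all genes. P4hb, the classical protein disulfide isomerase, was lower with each mimic, with 220, 221 and 240 RPKM against 339 in the control and a log2 fold change of -0.62 (-0.65 to -0.59), -0.61 (-0.65 to -0.58) and -0.50 (-0.53 to -0.47).

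The largest fall of the ER list was Wfs1, an ER membrane protein, with miR-106b (1.68 against 3.73 RPKM, -1.15, -1.42 to -0.87), Derl2, a channel component of ER-associated degradation, with miR-93 (8.90 against 19.2 RPKM, -1.11, -1.33 to -0.90), and Mbtps1, the protease that makes the first cut in ATF6, with miR-25 (19.6 against 36.2 RPKM, -0.88, -0.96 to -0.81). Mbtps1 was at 28.3 and 29.4 RPKM with miR-106b and miR-93. The largest rise with miR-25 was Crebrf, a regulator of the response, which was at 16.7 RPKM against 9.25 in the control (0.85, 0.76 to 0.95) while it fell to 5.29 RPKM with miR-106b (-0.81, -0.92 to -0.69) and to 4.95 RPKM with miR-93 (-0.90, -1.02 to -0.78). The largest values above the control with the other mimics did not pass the fold, at 0.35 for Fkbp2 with miR-106b and 0.37 for Creb3l1 with miR-93.

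**Figure D4:**
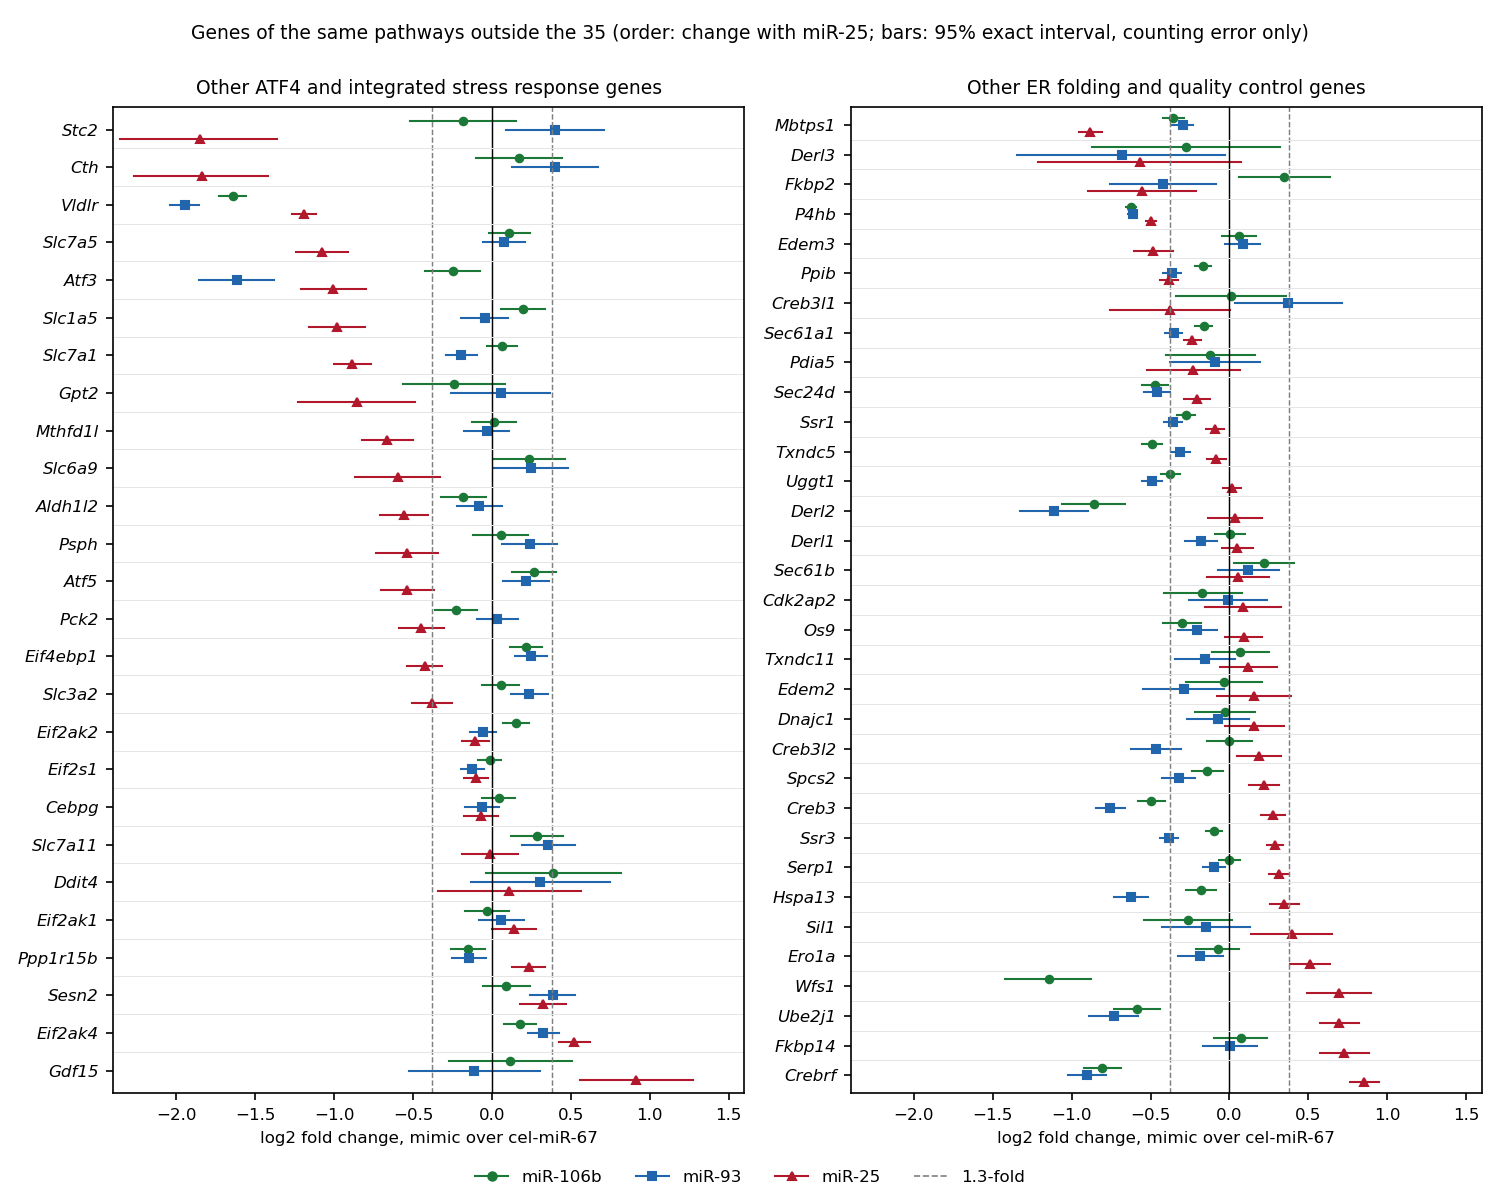
Points give the log2 fold change (x axis) of further ATF4 and integrated stress response genes (left) and of further ER folding and quality control genes (right) with miR-106b (circles), miR-93 (squares) and miR-25 (triangles) over cel-miR-67, ordered by the value with miR-25, with 95% exact intervals for counting error and dashed lines at 1.3-fold. Most triangles on the left lie below 0 (median -0.49) while circles and squares scatter around it, and on the right the triangles of Crebrf, Fkbp14 and Ube2j1 lie to the right of 1.3-fold.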

How the data were processed

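RNA of 4 cultures, 1 per mimic, was sequenced by the authors, who state that reads were checked with FASTQC, trimmed with Cutadapt and aligned with STAR 2.7 to the rat build Rnor_6.0, and that rounded gene counts were turned into RPKM with edgeR. The program that counted reads and its strand setting are not given in the sources used here. The deposited RPKM values of the series table equal those of the files for each sample in all 15731 genes, and no column of comparisons was present.

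Groups were taken from the treatment labels. Whole reads were recovered for 15731 of 15731 genes from the ratios of their RPKM values across libraries (relative tolerance 1e-12) under the condition that gene lengths be whole to within 0.01 bases, which also gave the library sizes, and these were not whole numbers. The recovery and the intervals were tested on simulated data, and the outcomes of those tests are not given here. With 1 library per mimic no test was run. Counts use a ratio past 1.3-fold with RPKM above 1.0 in both libraries and no pseudocount, medians are over genes tested, and the background is the share of all genes tested past the same fold in the same direction. Intervals are 95% Clopper-Pearson intervals of the share of reads in 1 of the 2 libraries.

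The 35 genes, the arms and the other lists were chosen with earlier results of these data known. The RPKM of all 4 libraries was to be given for each of the 25 genes past the fold with at least 1 mimic, for sensors and transcription factors and for the most abundant gene of each arm. From the other pathway lists the genes past the fold in 1 direction with all 3 mimics and the largest rise and fall with each mimic were named. Older symbols were matched through RefSeq synonyms, Ero1a was found as Ero1l, and a row that a list named under 2 symbols was counted once. Nupr1 was left out because it is listed in 2 rows. Cebpb, Cbs and Mbtps2 were among the genes not tested because of low values. The ATF4 list named 30 genes, of which 28 were listed once and 26 tested. The ER list named 36, of which 34 were listed once. With miR-93 32 of these were tested, and 33 with miR-106b and with miR-25. Other genes lost are not named here. Promoters and miRNAs came from RefSeq tables on GRCr8, a build other than that of the alignment, so they were matched by name. Atf6, Pdia3, Pdia6, Manf and Ern1 had no window.

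Alternatives were an RPKM cutoff of 2.0, a pseudocount of 1 without a cutoff, reads on listed genes as the scale, centring on the median gene, a 1.5-fold cutoff and a requirement that the interval leave out 0. Restricting the counts to members under their own symbol was added after the data were seen. The scripts ran in Python 3.11.15 with pandas 2.3.3, numpy 2.4.6, scipy 1.17.1 and, for the plots, matplotlib 3.10.9.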

Additional observations from a re-analysis of the deposited data

Results flagged for a closer look

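Edem1, Sdf2l1, Chac1 and Psat1 passed 1.3-fold in opposite directions against the control with 2 mimics, each time with an interval that left out 0. With 1 library per mimic the difference between the mimics was not tested. Edem1 had a log2 ratio of -0.86 (-0.99 to -0.73) for miR-25 over miR-106b and of -0.87 (-1.01 to -0.74) for miR-25 over miR-93. For Sdf2l1 the ratio of miR-25 over miR-106b was -1.01 (-1.25 to -0.79). Chac1 gave -1.38 (-1.77 to -1.0) and Psat1 -1.17 (-1.29 to -1.05) for miR-25 over miR-93. With a 1.5-fold cutoff against the control, the values of Chac1 (-0.80) and Psat1 (-0.66) with miR-25 still passed and the others named here did not.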

How the results depend on the processing

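The reported counts were 4 higher and 4 lower genes for miR-106b, 5 higher and 13 lower for miR-93, and 2 higher and 18 lower for miR-25. An RPKM cutoff of 2.0, a pseudocount of 1 without a cutoff, centring on the median gene and intervals without 0 left each count within 1.5 times, and the first 3 of these left the arm medians nearly where they were. A 1.5-fold cutoff left 1 higher and 3 lower genes for miR-106b, where 5.21% of all genes were higher and 5.73% lower. For miR-93 it left 2 higher (5.71%) and 4 lower (11.4%) of the 35 genes, with a background of 6.92% and 8.35%. The lower share with miR-93 was thus much closer to its background than at 1.3-fold, where it was 37.1% against 15.6%. For miR-25 it left 1 higher and 8 lower, with a background of 10.6% and 13.7%. With reads on listed genes as the scale, 5 genes were lower with miR-93 (background 9.65%) and 11 with miR-25 (background 15.9%). The median of all genes then moved up by 0.08 with miR-106b and by 0.15 with miR-93 and miR-25, the same as every single gene. On that scale the ATF6 arm median was -0.072 for miR-106b, -0.22 for miR-93 and -0.25 for miR-25, the IRE1 arm median was -0.21 with miR-93 and -0.16 with miR-25, and the PERK arm median was 0.36 with miR-93 and -0.36 with miR-25. Leaving out the 2 members listed under an older symbol, a choice made after seeing the data, left 1 higher gene with miR-25, because Ero1b is one of them, and an ATF6 arm median of -0.48 with miR-25. No called member changed sign under any alternative. Few reads limit the precision of genes such as Chac1, which had 81 with miR-25, and differences between cultures were not measured.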
